A study of Arabidopsis thaliana with 2 samples.

Results

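GEX1 (GAMETE EXPRESSED PROTEIN 1, locus AT5G55490) was described through its 3 rows in the authors' tables of splicing events from Arabidopsis thaliana embryos. All 3 rows stood in the intron retention table, which holds 115 rows, out of 270 rows in the 4 tables together. The other 3 tables, which cover exon skipping and alternative splice sites at either end of an intron, held 0 rows of this gene. The gene was chosen by its listed rows, and a row was listed because the authors called a difference between the mutant and the wild type, so that difference is given here as a description with no test.

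The mutant embryos carry the name lefko1 in the title and genotype of their sample, and lefko2 in its extract protocol and in the table headings. As the series has a single mutant sample, both names were read as that sample, the lefko mutant. It was set against wild-type embryos, and both genotypes were of the Col-0 ecotype. Embryos between the globular and the heart stage were dissected from siliques, though both samples carry the source name of seeds, and total RNA was sequenced from 1 sample per genotype. The sources used here name neither the mutated gene nor the kind of mutation nor the number of plants. The tables hold splicing events and no levels of all genes, so embryo markers and library totals were not analysed here.

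GEX1 encodes a membrane protein of the nuclear envelope in the family of yeast Kar5 and fish Brambleberry, proteins that are needed for nuclei to fuse after mating or fertilization. In Arabidopsis it is known from sperm cells, egg cells and embryos, and loss of its function disturbs gametophytes and early embryos. An intron that stays in a messenger RNA usually adds a stop codon to the reading frame, so that the RNA can encode only a shortened protein.

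The gene lies on the minus strand of chromosome 5 (chr5:22478712-22481937, build TAIR10.1). RefSeq annotates 9 isoforms. Isoform AT5G55490.1 has 7 exons and 6 introns, and its reading frame of 1782 bases, stop codon included, encodes 593 residues. Counted in the direction of transcription, intron 1 (763 bases) lies in the 5′ UTR and introns 2 to 6 lie between coding exons. The listed introns were the last 3: intron 4 (chr5:22479601-22479687, 87 bases), intron 5 (chr5:22479320-22479413, 94 bases) and intron 6 (chr5:22479078-22479174, 97 bases). Exon 5, of 187 bases, separates introns 4 and 5, and exon 6, of 145 bases, separates introns 5 and 6. Introns 2 and 3, of 94 and 96 bases, had no row in any table.

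**Figure D1:**
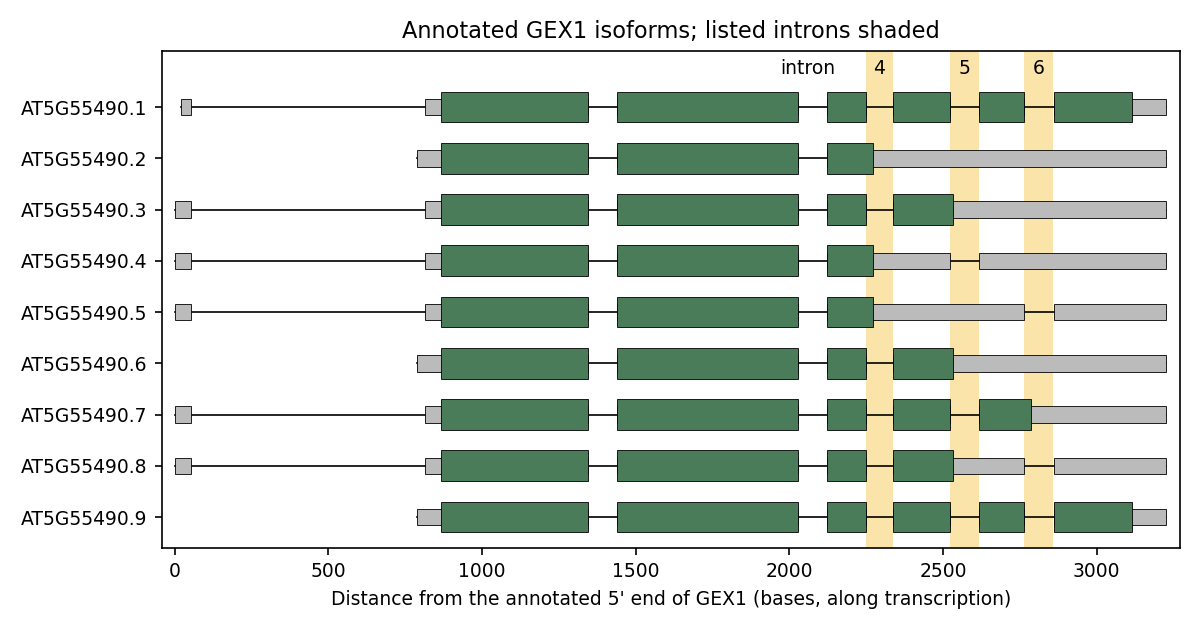
Annotated isoforms of GEX1, drawn to scale along the direction of transcription (x axis, bases from the annotated 5′ end of the gene); grey boxes are untranslated exon parts, green boxes coding parts, lines introns and yellow bands the 3 listed introns. Of the 9 isoforms, 3 keep intron 4, 5 keep intron 5 and 5 keep intron 6, and 0 keep intron 1, 2 or 3.

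The retained form of each listed intron is already annotated. Intron 4 is kept in 3 of the 9 isoforms, and introns 5 and 6 in 5 each, while introns 2 and 3 are spliced in all 9. Isoforms AT5G55490.1 and AT5G55490.9 keep none of the 3 listed introns and encode the protein of 593 residues. Isoform AT5G55490.2 keeps all 3. No isoform is annotated with intron 4 as its only retained intron.

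Each listed intron brings a stop codon into the reading frame within its first 22 bases. The sequences below, from the TAIR10.1 genome, run from the last 6 bases of the exon before each intron through that stop codon, which stands in capitals; the intron begins with the gt after the first 6 bases. They are shown because they are the coding sequence that a retained intron adds.
Intron 4 (chr5:22479667-22479693, minus strand): gcccaggtcagtcctcccaaatctTAA
Intron 5 (chr5:22479406-22479419, minus strand): acattggtaagTGA
Intron 6 (chr5:22479153-22479180, minus strand): atacaggtataaccaaaatatactaTAA

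The stop codon ended at base 21 of intron 4, at base 8 of intron 5 and at base 22 of intron 6. Intron 4 is the one listed intron with a length that is a multiple of 3, so its retention would not shift the frame of the next exon, but the stop codon comes first. Retention of intron 4 would leave a protein of 404 residues, 68.1% of the full length. Retention of intron 5 alone would leave 462 residues (77.9%), and retention of intron 6 alone 515 residues (86.8%). These are the lengths that RefSeq gives for the isoforms with each of them as the first retained intron. Introns 2 and 3 also hold a stop codon in frame, which ends at base 4 of each, and would leave 160 and 356 residues.

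In an RNA with intron 4 as its only retained intron, 398 bases lie between the stop codon and the last exon junction, and with intron 5 alone 231 bases. With introns 4 and 5 retained the distance is 492 bases, and with introns 4 and 6 it is 253 bases. With intron 6 as the only retained intron, or introns 5 and 6, or all 3, no junction follows the stop codon. An exon junction well behind a stop codon is a known mark of RNAs that nonsense-mediated decay removes; decay was not measured here.

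The part of the protein behind intron 4 holds its most hydrophobic stretch. On the Kyte-Doolittle scale, averaged over 19 residues, the mean reached 1.6, a customary mark for segments that may cross a membrane, in 2 stretches. Residues 4 to 27, at the start of the protein, peaked at 1.93 and lie before all 3 listed introns. Residues 422 to 449 peaked at 2.17 and lie between introns 4 and 5, so a protein that ends in intron 4 lacks them. Lower peaks of 1.56 and 1.58, centred on residues 467 and 497, lie between introns 5 and 6 and are lost with retention of intron 4 or intron 5. Behind intron 6 the highest mean was 0.0842.

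**Figure D2:**
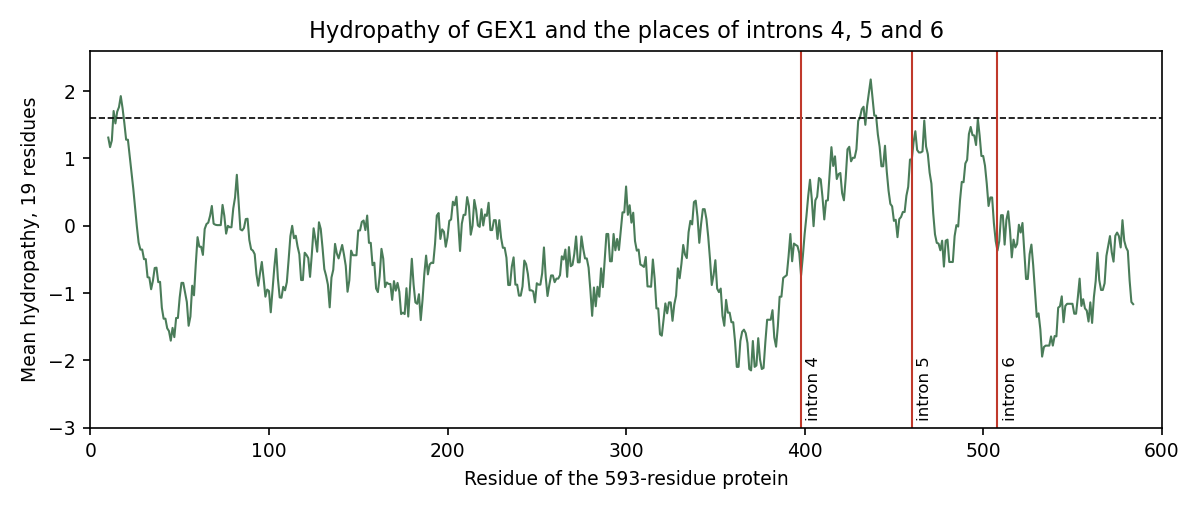
Mean Kyte-Doolittle hydropathy over 19 residues (y axis) along the protein of 593 residues (x axis); the dashed line is 1.6 and the vertical red lines mark where introns 4, 5 and 6 interrupt the coding sequence. The peak of 2.17 at residue 437 lies between introns 4 and 5, and the peaks of 1.56 and 1.58 between introns 5 and 6.

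All 3 introns were retained in a smaller share of reads in lefko embryos than in wild-type embryos. Intron 4 was retained in 26.9% of lefko reads and 91.7% of wild-type reads, intron 5 in 8.55% and 75.0%, and intron 6 in 0.820% and 56.8%. In the lefko mutant most reads at each of the 3 introns were spliced ones, whereas in the wild type most were retained ones, except that with retained reads halved the wild-type share of intron 6 was 39.6%. A share is that of reads over the retained intron (headed IC) among these and the reads over the spliced junction (headed SC). The tables join 3 whole numbers in each cell, called here values 1, 2 and 3; the sources used here do not say what they stand for, so they were added up and a genotype counts as 1 sample.

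Intron 4 had 18 retained of 31 reads, 1 of 26 and 6 of 36 in the 3 lefko values, against 14 of 17, 29 of 30 and 12 of 13 in the 3 wild-type values. As shares, these were 58.1%, 3.85% and 16.7% in the lefko mutant, against 82.4%, 96.7% and 92.3% in the wild type. The values did not overlap between the genotypes, with a gap of 24.3 percentage points, but lefko value 1 stood far above the other 2. Without it the lefko share was 11.3% of 62 reads in place of 26.9% of 93 (exact Clopper-Pearson 95% interval 18.2 to 37.1), while the wild-type share was 91.7% of 60 reads (81.6 to 97.2). The intervals of lefko value 1, 39.1 to 75.5, and wild-type value 1, 56.6 to 96.2, overlapped. All these intervals cover counting error only.

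Intron 5 had 8 retained of 39 reads, 2 of 24 and 0 of 54 in the lefko values, which gives 20.5%, 8.33% and 0, where 0 of 54 reads allows a share of up to 5.56%. In the wild-type values it had 11 of 13, 20 of 28 and 8 of 11, or 84.6%, 71.4% and 72.7%. The highest lefko value was separated by 50.9 percentage points from the lowest wild-type value, which lay above it. Over summed reads the lefko share was 8.55% of 117 reads (4.17 to 15.2) and the wild-type share 75.0% of 52 reads (61.1 to 86.0). Without lefko value 1 the lefko share was 2.56% of 78 reads.

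Intron 6, the last intron of the gene, had 1 retained of 38 reads, 0 of 25 and 0 of 59 in the lefko values, against 6 of 10, 10 of 18 and 5 of 9 in the wild-type values. The wild-type shares lay close together, at 60.0%, 55.6% and 55.6%. The single retained lefko read was again in value 1, and the 0 counts of values 2 and 3 allow shares of up to 12% and 5.08%. Over summed reads the share was 0.820% of 122 lefko reads (0.0208 to 4.48) and 56.8% of 37 wild-type reads (39.5 to 72.9). Without lefko value 1 it was 0 of 84 lefko reads, which allows up to 3.57%.

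**Figure D3:**
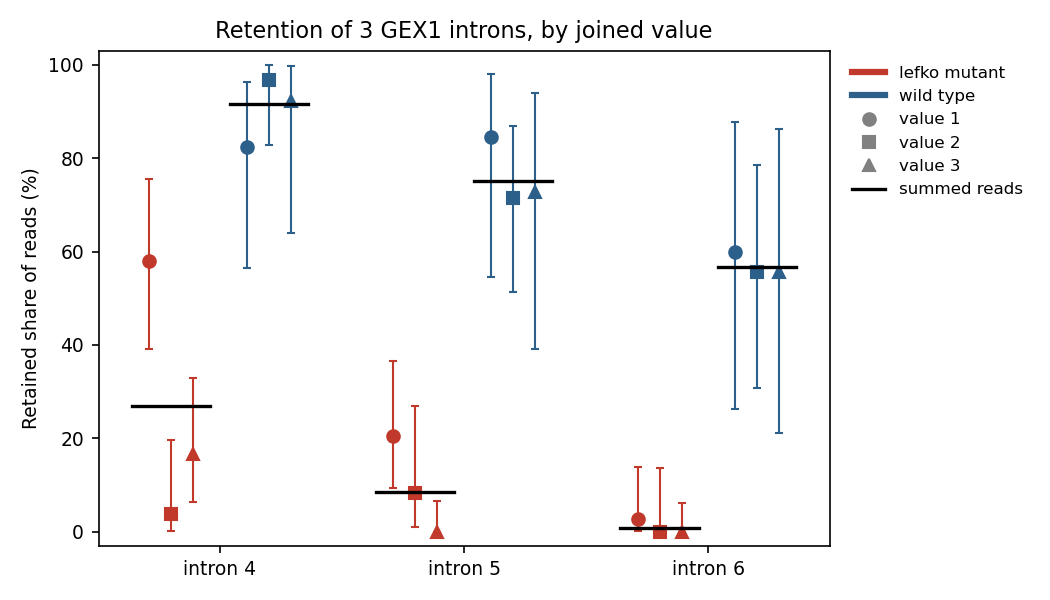
Retained share of reads (y axis, percent) at introns 4, 5 and 6 of GEX1 for the 3 joined values of the lefko mutant (red) and the wild type (blue); error bars are exact 95% counting intervals and black lines the share of summed reads. Every lefko value lies below every wild-type value of the same intron, and lefko value 1 at intron 4, 58.1%, stands nearest to the wild type.

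With reads summed, the retained share was largest at intron 4 and smallest at intron 6 in both genotypes. Value by value the order was not fixed. In the lefko mutant, value 2 was lower at intron 4 (3.85%) than at intron 5 (8.33%), and in the wild type value 1 was lower at intron 4 (82.4%) than at intron 5 (84.6%). No correction was made for the number of places a read can start in each form, so this order compares introns of similar but not equal length (87 to 97 bases).

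The log2 odds ratio of retention, lefko mutant over wild type, is free of that correction. With 0.5 reads added to each count, it was -4.76 ± 0.73 at intron 4, -4.90 ± 0.65 at intron 5 and -6.72 ± 1.28 at intron 6 (standard errors from counting). The last value rests on 1 retained lefko read. The intervals of the 3 introns, -6.18 to -3.34, -6.18 to -3.63 and -9.22 to -4.22, overlap.

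A lower share can come with fewer retained reads or with more spliced ones. In summed reads, which were not scaled to library depth, GEX1 had both. Spliced reads numbered 68, 107 and 121 at introns 4, 5 and 6 in the lefko mutant, against 5, 13 and 16 in the wild type. The ratios of lefko to wild-type spliced reads were 13.6 (95% counting interval 5.55 to 43.2), 8.23 (4.61 to 16.0) and 7.56 (4.47 to 13.7). Over all 115 retention events the median ratio of spliced reads was 0.309, with 0.5 reads added to each count, and GEX1 took ranks 12, 14 and 15 from the top.

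Retained reads numbered 25, 10 and 1 in the lefko mutant, against 55, 39 and 21 in the wild type. Their ratios were 0.455 (0.271 to 0.742) at intron 4, 0.256 (0.114 to 0.523) at intron 5 and 0.0476 (0.00115 to 0.296) at intron 6. The median of the table was 0.495. The intervals of introns 4 and 5 hold that median, and the ratios of introns 4, 5 and 6 took ranks 50, 30 and 7 from the bottom of 115.

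**Figure D4:**
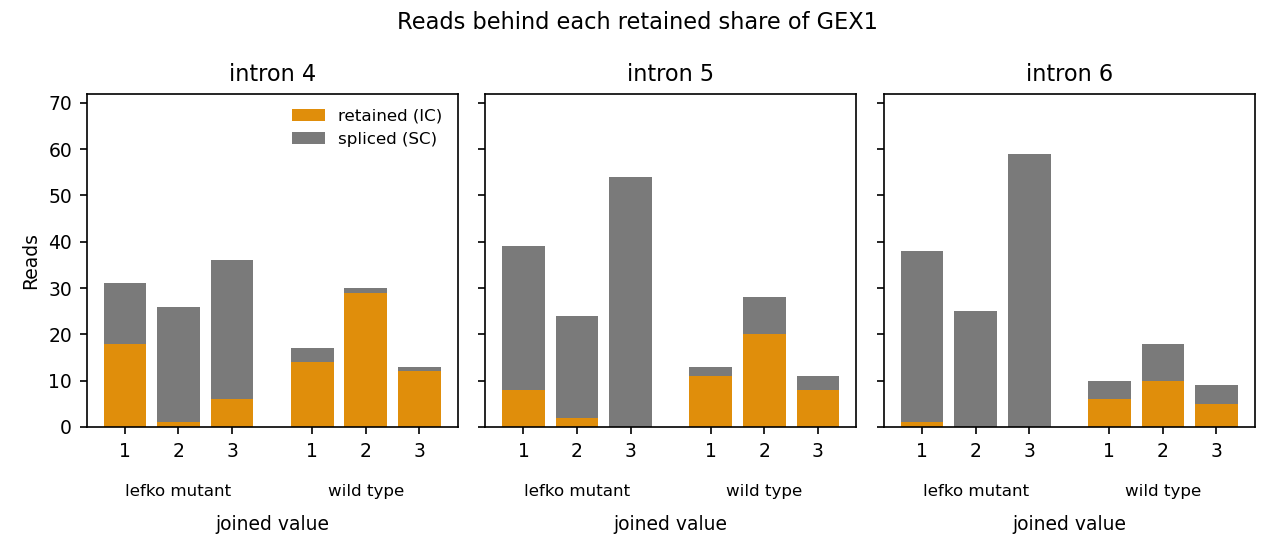
Reads (y axis) that kept (orange, IC) or spliced (grey, SC) introns 4, 5 and 6 of GEX1, stacked for each of the 3 joined values of the lefko mutant and the wild type. Spliced reads make up most of each bar in the lefko mutant except at intron 4, value 1, and retained reads make up most of each bar in the wild type.

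GEX1 had more summed event reads in the lefko mutant than in the wild type, unlike most listed genes. The sums of both kinds of read were 93, 117 and 122 in the lefko mutant and 60, 52 and 37 in the wild type, ratios of 1.55 (1.11 to 2.18), 2.25 (1.61 to 3.18) and 3.30 (2.27 to 4.90). Without lefko value 3 the intron 4 ratio was 0.95, and without lefko value 1 it was 1.03. Each of these sets the remaining lefko values against all 3 wild-type values, so it must lie below 1.55. Over the event with most reads in each of the 227 listed genes the median ratio was 0.471, and GEX1, at 2.25, took rank 21 from the top. Of the 51 retention events with a lower share in the lefko mutant, 19 had more reads there, the 3 of GEX1 among them, against 10 of the 64 events with a higher share. A larger number of event reads can reflect more RNA of the gene or more cells that express it, which cannot be told apart in whole embryos, and the libraries' depth was not analysed here.

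**Figure D5:**
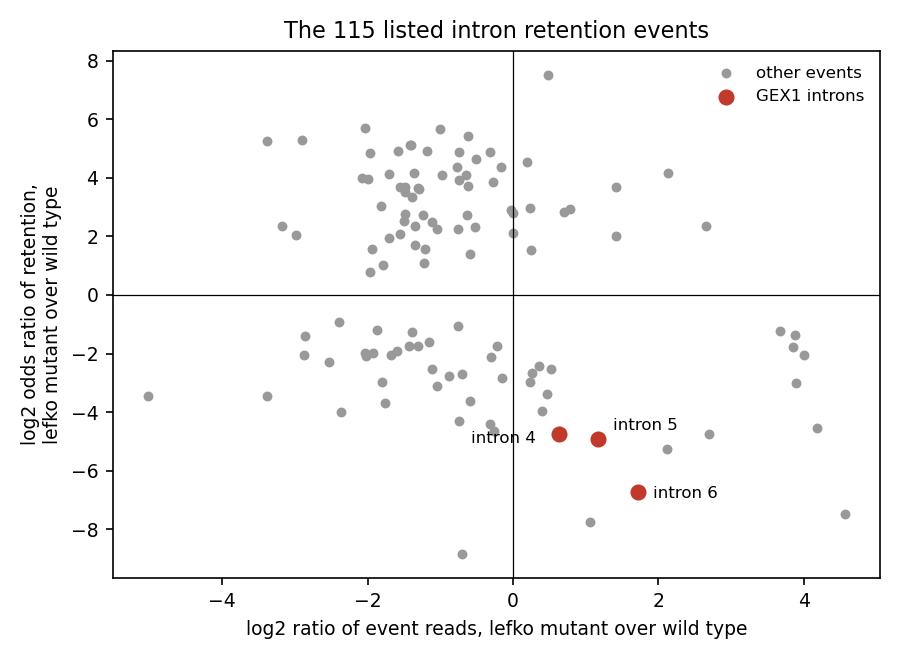
Each point is 1 of the 115 listed retention events, with the log2 ratio of event reads on the x axis and the log2 odds ratio of retention on the y axis, both lefko mutant over wild type. The GEX1 introns (red) lie at odds ratios of -4.76, -4.90 and -6.72, with more reads in the lefko mutant at all 3.

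Each share can be read as a share of RNA molecules, taken without counting error. So read, at least 63.8% and at most 73.1% of lefko GEX1 RNAs had all 3 introns spliced. For the wild type the same arithmetic gives at most 8.33%, since only that share of reads had intron 4 spliced. These upper limits rest on the retained share of intron 4, with counting intervals of 18.2% to 37.1% (lefko) and 81.6% to 97.2% (wild type). Without lefko value 1 the lefko share was 11.3%, which would raise the lefko upper limit. With retained reads halved, as for an intron with a pair of exon borders against a single spliced junction, the lefko range was 79.6% to 84.5% and the wild-type limit 15.4%. Which introns were kept together in a molecule cannot be read from the tables, and a read pair that spans exon 5 or exon 6 can have entered more than 1 row.

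The authors' deposited table gives p-values of 2.88e-10, 3.44e-13 and 1.85e-09 for introns 4, 5 and 6, with false discovery rates of 8.28e-08, 1.78e-10 and 4.55e-07. By these p-values the introns took ranks 18, 10 and 21 of 115. The authors' listing took in 2.22% of about 5174 retention events they tested. A lower share in the lefko mutant was found in 44.3% of the listed retention events, and in 31.3% all 3 lefko values lay below all 3 wild-type values, as at the 3 GEX1 introns. The rows were listed for this contrast, so nothing is read from their count against these percentages.

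All 6 introns of the gene begin with GT and end with AG. The last 20 bases of each listed intron and the first 3 of the next exon, with the AG in capitals, are shown because they hold the acceptor site that retention leaves unused.
Intron 4 (chr5:22479598-22479620, minus strand): ataacaatctgtttttgcAGgta
Intron 5 (chr5:22479317-22479339, minus strand): tttcctttatacaaacgcAGgtt
Intron 6 (chr5:22479075-22479097, minus strand): tctcttgtctaaaaatgcAGgga

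Scored against 133448 annotated nuclear introns with a position weight matrix, the donor sites of introns 4, 5 and 6 had 8.99, 8.01 and 7.68 bits, at percentiles 88.5, 71.5 and 63.4. Their acceptor sites had 12.2, 6.21 and 7.01 bits, at percentiles 98.5, 37.3 and 48.8. Intron 4 had the highest acceptor score of the 6 introns, and the lowest donor score, 4.60 bits at percentile 15.4, belonged to intron 2, which has no listed row. GC content was 31.0%, 31.9% and 26.8% at introns 4, 5 and 6, against 29.8% and 33.3% at introns 2 and 3, and the median over all introns was 32.7%. Lengths of the listed introns lay at percentiles 27.1, 40.5 and 44.9. These scores and lengths describe the introns and were not tested against retention.

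Apart from GEX1, only M17, which encodes a late embryogenesis abundant protein, had 3 retention rows. Its log2 odds ratios were nearer to 0, at -1.79 ± 2.10, -1.22 ± 1.29 and -1.36 ± 1.22 (standard errors from counting). The retained shares of M17 were 88.8%, 75.2% and 89.5% in the lefko mutant and 100%, 90.9% and 97.0% in the wild type. The 3 M17 rows are spans that overlap one another, at chr2:17206959-17207288, chr2:17207124-17207288 and chr2:17207216-17207380. None of these spans equals an annotated intron, whereas the 3 rows of GEX1 are separate annotated introns. The M17 rows rest on 13, 11 and 33 wild-type reads, and all 13 of the first row were retained ones.

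Among the 75 retention events of other genes with at least 20 reads in each genotype, 1 had an odds ratio lower than those of all 3 GEX1 introns. It was in the dehydrin gene RAB18, named after its value was seen, at -7.48 with retained shares of 90.6% of 20298 lefko reads and 100% of 856 wild-type reads. The RAB18 odds ratio rests on 0 spliced wild-type reads, and its row spans 21 bases that are not an annotated intron. Among events with fewer reads, those of AT1G72416 (-8.84) and AT4G28790 (-7.74), also named after their values were seen, lay lower too. Their share differences, lefko minus wild type, were -100 and -83.3 percentage points. Among all 115 retention events, introns 4, 5 and 6 took ranks 7, 6 and 4 from the lowest odds ratio. From the lowest share difference they took ranks 6, 5 and 10. Of the 75 events with at least 20 reads in each genotype, 3 were named as nearest to the GEX1 mean of -5.46, compared over the 2 samples. They were in LTI30, AT5G18065 and AAP7. LTI30, a dehydrin gene, had a log2 odds ratio of -4.56 with retained shares of 91.4% of 2251 lefko reads and 100% of 124 wild-type reads, so it is alike in odds and not in shares, and its odds ratio rests on 0 spliced wild-type reads. AT5G18065, which the annotation names as a target of trans-acting small RNAs, had 0 of 26 lefko reads, which allows up to 11.5%, and 23.1% of 134 wild-type reads. AAP7, an amino acid permease gene, had 10% of 50 lefko reads (3.33 to 21.8) and 65.8% of 38 wild-type reads (48.6 to 80.4). Of LTI30, AT5G18065 and AAP7, the last had the shares nearest to those of GEX1 intron 5. Events with fewer reads, named after their values were seen, came nearer to the mean. Those of AT1G10810 had log2 odds ratios of -5.28 and -4.74 and more reads in the lefko mutant (ratios 4.36 and 6.47). Their share differences, -76.3 and -70.2 percentage points, were larger than those of GEX1 introns 4, 5 and 6 (-64.8, -66.5 and -55.9). That of RTH had -4.66 and fewer reads there (0.833).

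The list of other genes of gamete and nuclear fusion held 29 loci. It took in the fusogen gene HAP2, the gamete membrane genes GEX2 and GEX3, the sperm regulator DUO1 and the DMP genes AT1G09157 and AT5G39650. Egg-cell secreted EC1 genes, endoplasmic reticulum BiP chaperones and their DnaJ partners, and SUN proteins of the nuclear envelope were also in it. The rest were NFD and GFA2 genes of nuclear fusion and splicing factors of gametic cell fate. The annotation matched 28, and 21 of these have an annotated intron. A single gene of the list had a listed event, 4.76% of those with an intron, and 0 had a retention event. Over the 22797 genes with an annotated intron in a messenger RNA the share with a listed event was 0.934%, and nothing is read from a list count of 1. That gene was MEE5, of the spliceosome GTPase also known as CLO or GFA1. Its exon was included in 1 of 9 lefko reads (11.1%, 0.281 to 48.2) and 42.6% of 68 wild-type reads (30.7 to 55.2), and its 3 values overlapped between the genotypes. A gene with too few reads cannot be listed, and read levels of the unlisted genes were not analysed here.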

How the data were processed

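The authors deposited 4 tables of splicing events whose count columns join 3 whole numbers per cell, with p-values and false discovery rates. The submitters' processing notes name HISAT2 2.0.4 and TAIR10; for the event caller and its statistics, nothing is given in the sources used here. The columns were split and summed per genotype. In all 19 pairs of alternative splice site rows that share the short form only, SC was equal and IC was not, so SC was read as the spliced form. Starts count from 0 in the tables: so read, all exon bounds of the 3 GEX1 rows equalled bounds in the TAIR10.1 RefSeq annotation, whose chromosome accessions the tables use. Retained shares carry exact Clopper-Pearson intervals at 95%, and a count of 0 allows 3 reads of the total. Odds ratios have a pseudocount of 0.5. No test was run: each genotype is 1 sample. No count model was fitted to the joined counts. GEX1 bases, reading frames, hydropathy (19-residue windows) and splice scores (3 exon and 6 intron bases at the donor, 14 and 1 at the acceptor) were computed from the genome. How many events the authors had tested was worked out from their p-values and false discovery rates, and 106 of 110 usable rows lay within 1% of it. Odds ratios and this recovery were tested on simulated data. Named genes were those with as many retention rows as GEX1, and the 3 events nearest in odds ratio with at least 20 reads per genotype. RAB18, AT1G72416, AT4G28790, AT1G10810 and RTH were added after their values were seen. GEX1 and all lists were chosen with earlier results of these data known. Python 3.11.15, NumPy 2.4.6, SciPy 1.17.1 and pandas 2.3.3 were used.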

Additional observations from a re-analysis of the deposited data

How the results depend on the processing

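Of 89 alternative values, 66 stayed within the counting interval or range of the value reported, 22 moved outside it and 1 changed direction. That was the intron 4 ratio of event reads, 0.95 without lefko value 3. All wild-type values were still counted there, so it does not show fewer reads per value in the lefko mutant. With the median of the 3 values, the lefko share was 16.7% at intron 4 and 0 at intron 6. With retained reads halved it was 15.5% at intron 4, and the wild-type share was 60% at intron 5 and 39.6% at intron 6. The leave-one-out values, each without 1 joined value of 1 genotype, ran as follows. The lefko share ran from 11.3% to 35.8% at intron 4, from 2.56% to 15.9% at intron 5 and from 0 to 1.59% at intron 6. The log2 odds ratio ran from -6.22 to -3.98 at intron 4 and from -6.48 to -3.9 at intron 5, with the lowest values without lefko value 1. The ratio of event reads ran from 0.95 to 3.1, from 1.21 to 4.88 and from 1.70 to 6.42 at introns 4, 5 and 6, since leaving out a value takes its reads from 1 genotype. The ratios of spliced reads alone, 13.6, 8.23 and 7.56, moved outside those intervals too. Events less retained in the lefko mutant numbered 33 with at least 20 reads per genotype, and 33 at a false discovery rate under 0.01, in place of 51. At the same settings, events more retained in the lefko mutant numbered 45 and 43, in place of 64. No paired analysis was possible because each genotype has 1 sample and no test was run. Shares rest on 93 to 122 lefko reads and 37 to 60 wild-type reads per intron.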

Other observations

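Lefko value 1 held 27 of the 36 retained lefko reads counted over the 3 GEX1 rows, but 81 of the 296 spliced ones. Values 2 and 3 held 3 and 6 retained reads with 72 and 143 spliced reads. The same value did not stand out over the table. Among 31 other retention events with a lower share in the lefko mutant and at least 5 reads in each lefko value, value 1 was the highest lefko value in 8, value 2 in 7 and value 3 in 16. In the wild type the 3 values held 31, 59 and 25 retained reads and 9, 17 and 8 spliced reads, a nearly constant ratio with the 3 rows summed. At single introns the wild-type ratio could vary more. Retained and spliced reads of the 3 values were 14 and 3, 29 and 1, and 12 and 1 at intron 4. They were 11 and 2, 20 and 8, and 8 and 3 at intron 5, and 6 and 4, 10 and 8, and 5 and 4 at intron 6. These counts were made after the values were seen, and the cause of the high lefko value 1 was not tested.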
